A study of Mus musculus with 284 samples.

Results

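The mitochondrially encoded transcripts are the products of the small circular genome inside mitochondria. All rows of the deposited count table whose symbol begins with mt- were taken, which gave 37 genes of 54247 rows. They comprise 13 messengers, 2 ribosomal RNAs (mt-Rnr1 and mt-Rnr2) and 22 transfer RNAs, and 35 of the 37 had a count in at least 1 cell. The table holds 284 single tumour propagating cells, that is, cells sorted from skin squamous tumours for surface CD34 and CD49f, a YFP reporter and exclusion of propidium iodide. The cells came from 4 C57BL/6 mice that all carried Keratin14-Cre and a ROSA26-LSL-eYFP reporter, and all mice received DMBA at 8 weeks of age and then TPA for over 20 weeks. Mice KO1 (73 cells) and KO3 (54 cells) were labelled Sirt6-/-, and mice WT1 (69 cells) and WT2 (88 cells) wild type. SIRT6 is a nuclear histone deacetylase that holds down glycolytic genes, and the comparison asks how cells lacking it differ. The mouse is the replicate, so each genotype has n = 2.

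Mitochondrial DNA is transcribed from both strands as long precursors, which are cut mostly at the transfer RNAs that punctuate them. Most of the messengers then receive short poly(A) tails. The messengers encode core subunits of respiratory complexes I, III and IV and of the ATP synthase. All other subunits of these complexes, and all of complex II, are encoded in the nucleus, so the enzymes are assembled from the products of both genomes. Basal keratinocytes of the skin are commonly described as relying on glycolysis beside respiration.

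The libraries were made with a Smart-seq2 protocol, in which reverse transcription starts from an oligo-dT primer on poly(A). The table gives expected counts from RSEM, which shares a read that fits several genes among them. Counts per cell lay between 523999 and 1684464, with a median of 1130412, and 3235 to 8470 genes were detected per cell. Keratins Krt14 and Krt5 were detected in 100% of cells, the basal transcription factor Trp63 in 97.5%, the CD49f gene Itga6 in 91.9% and Cd34 in 72.9%. Marker lists of fibroblasts, endothelium, melanocytes, adipocytes and muscle summed to at most 8.92 CPM (counts per 1000000) in any mouse, and the immune list to 21.6 CPM in WT2 and at most 1.44 CPM in the other mice. Sirt6 itself had 27.0 CPM in KO1 and 14.5 CPM in KO3, against 16.7 CPM in WT1 and 25.2 CPM in WT2. The transcript therefore does not separate the genotypes and does not check the label. Plate 1 held 65 cells of KO1, plate 2 the other 8 cells of KO1 and all 54 of KO3, plate 3 all 69 cells of WT1 and 7 of WT2, and plate 4 the other 81 cells of WT2. Sirt6-/- and wild-type cells shared no plate, and an effect of the plate and one of the genotype cannot be told apart.

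The ends of the transcripts are shown first because the primer needs a run of A, and these genes differ in where one is encoded. In mt-Nd1 and mt-Co1 the stop codon is complete in the DNA. In mt-Co3, mt-Nd4 and mt-Cytb a single T of it is encoded, and the tail supplies the rest. The last 30 bases of each gene are printed 5′ to 3′ from the GENCODE M21 transcripts (GRCm38), with the encoded part of the stop codon in capitals. These genes lie on the plus strand of chromosome M.
mt-Nd1, chrM:3678-3707: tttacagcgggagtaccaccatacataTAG
mt-Co1, chrM:6843-6872: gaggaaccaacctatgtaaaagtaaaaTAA
mt-Co3, chrM:9361-9390: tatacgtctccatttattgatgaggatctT
mt-Nd4, chrM:11515-11544: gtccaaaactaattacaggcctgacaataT
mt-Cytb, chrM:15259-15288: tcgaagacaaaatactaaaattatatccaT
Within the messengers the longest encoded run of A goes from 3 bases in mt-Nd6 to 8 in mt-Nd2, with 7 in mt-Co1, mt-Nd4 and mt-Nd5. Whether such runs bear on the levels given below was not tested. The ribosomal RNAs are shown at their longest encoded run of A, in capitals, which is 5 bases in mt-Rnr1 and 7 in mt-Rnr2.
mt-Rnr1, chrM:690-724, plus strand: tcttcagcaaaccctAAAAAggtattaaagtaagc
mt-Rnr2, chrM:1473-1509, plus strand: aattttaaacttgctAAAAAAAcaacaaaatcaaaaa

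Part of the mitochondrial genome also stands in the nucleus. An insertion on chromosome 1, chr1:24611535-24616197 on the minus strand, is annotated as 7 genes that match 7 of the messengers over at least 100 bases at 98% identity or more. No other nuclear gene of the annotation matched. The first 60 bases of mt-Atp6, with its start codon in capitals, show what a counting program has to divide.
mt-Atp6, chrM:7927-7986, plus strand: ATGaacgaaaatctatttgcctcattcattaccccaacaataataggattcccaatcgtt
Gm10925, chr1:24614592-24614651, minus strand: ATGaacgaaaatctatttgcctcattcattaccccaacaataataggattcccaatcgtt
The nuclear copy Gm10925 was identical to mt-Atp6 over 678 of 678 bases, Gm28661 to mt-Co2 over 681 of 681, Gm28437 to mt-Co3 over 783 of 783, and Gm10222 to mt-Nd4l over 294 of 294. Gm28439 matched part of mt-Nd4 over 876 of 876 bases. The remaining copies differ from their gene at a single base of the matched stretch. Positions are counted from 1 at the first base of the mitochondrial gene, and the differing base is in capitals.
mt-Nd3, chrM:9459-9475, plus strand: atTaacctgtacactgt
Gm28438, chr1:24613103-24613119, minus strand: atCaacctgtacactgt
mt-Co1, chrM:6390-6407, plus strand: ggaAttgttttatccaac
Gm29216, chr1:24616171-24616188, minus strand: ggaTttgttttatccaac
The substitutions are T3C in Gm28438 relative to mt-Nd3 and A1066T in Gm29216 relative to mt-Co1. Gm28438 matched 344 of 345 bases and Gm29216 482 of 483. The matched stretch of Gm29216 is part of its 492 bases and part of the 1545 bases of mt-Co1.

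Mitochondrially encoded transcripts took roughly 5.05% of all counts. Their share was 5.85% in KO1 and 4.16% in KO3, against 4.53% in WT1 and 5.41% in WT2. The wild-type mice lay between the Sirt6-/- mice, and the means were 5.00% ± 1.20 in Sirt6-/- mice and 4.97% ± 0.62 in wild-type mice (SD, n = 2 each). An exact two-sided permutation test over mice gave p = 1, where 2 mice against 2 cannot go below 0.33. Single cells spread far more than the mice did: the share ran from 2.57% to 9.80% in cells of KO1 and from 1.14% to 8.44% in cells of KO3, against 2.60% to 9.48% in WT1 and 3.03% to 9.89% in WT2.

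Most of these counts were 1 transcript, the large ribosomal RNA mt-Rnr2. It held 66.3% of the mitochondrial counts in KO1 and 61.3% in KO3, against 70.2% in WT1 and 69.5% in WT2. The 13 messengers together made up 1.95% of all counts in KO1 and 1.59% in KO3, against 1.33% in WT1 and 1.62% in WT2. KO3 lay just below WT2, so the groups overlap, and the exact permutation test gave p = 0.667.

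The balance between ribosomal and messenger transcripts was lower in both mice labelled Sirt6-/-. The ratio of ribosomal to messenger counts was 1.99 in KO1 and 1.62 in KO3, against 2.39 in WT1 and 2.33 in WT2. On the log2 scale the means were 0.84 ± 0.21 in Sirt6-/- mice and 1.24 ± 0.03 in wild-type mice (SD, n = 2 each), a difference of -0.40. The exact two-sided permutation test gave p = 0.33, the smallest that 2 against 2 allows, so it cannot pass a threshold of 0.05. Without KO3 the difference was -0.24. The ratio exceeded 2 in 28 of 73 cells of KO1 and 20 of 54 of KO3, against 50 of 69 of WT1 and 63 of 88 of WT2. It fell under 1 in 1 cell of KO1 and 7 cells of KO3, against 0 cells of either wild-type mouse.

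Mice on a shared plate also differed in this ratio. On plate 2 it was 2.03 in the 8 cells of KO1 and 1.62 in the 54 cells of KO3. On plate 3 it was 2.39 in the 69 cells of WT1 and 1.99 in the 7 cells of WT2, whose plate 4 cells had 2.36. The 7 wild-type cells on plate 3 thus had the value of KO1, whose plate 1 cells stood at 1.99. The Pearson correlation of the log2 ratio with detected genes was 0.40 in KO1 and 0.46 in KO3, against 0.04 in WT1 and -0.04 in WT2. The rise in the Sirt6-/- mice was not steady. With cells divided into 4 bins from fewest to most detected genes, the median ratio was 1.89, 1.79, 1.86 and 2.42 in KO1. It was 1.36, 2.06, 1.42 and 1.94 in KO3. The median number of detected genes was 6367 in KO1 and 6614.5 in KO3, against 7009 in WT1 and 5783.5 in WT2, and its part in the ratio was not tested.

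**Figure D1:**
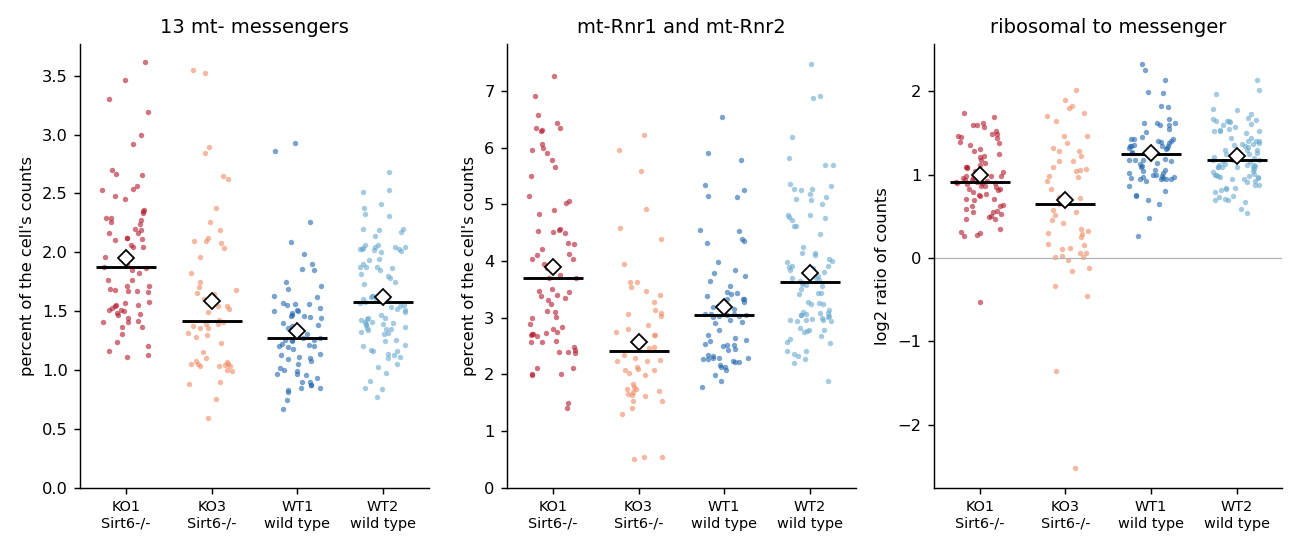
Each point is 1 cell, placed by mouse: percent of its counts on the 13 mitochondrial messengers (left), percent on mt-Rnr1 and mt-Rnr2 (middle), and log2 ratio of ribosomal to messenger counts (right). Black lines are medians over cells and diamonds are values from the summed counts of the mouse; the log2 ratio diamonds stand at 1.00 and 0.69 in KO1 and KO3, below 1.26 and 1.22 in WT1 and WT2.

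The 2 ribosomal RNAs are cut from the same precursor, yet their counts per length lay far apart. The level of mt-Rnr2, the RNA of the large ribosomal subunit at chrM:1094-2675, was 24506 CPM per kilobase in KO1 and 16092 in KO3, against 20079 in WT1 and 23766 in WT2. That of mt-Rnr1, the RNA of the small subunit at chrM:70-1024, was 197 CPM per kilobase in KO1 and 228 in KO3, against 163 in WT1 and 238 in WT2. Every cell had counts on both. In neither gene did the genotypes separate.

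Of the 7 messengers for complex I, which takes electrons from NADH, mt-Nd1 was the highest. It had 5066 CPM in KO1 and 4644 CPM in KO3, against 3137 CPM in WT1 and 3983 CPM in WT2, so both Sirt6-/- mice lay above both wild-type mice. Next came mt-Nd5, with 1971 and 1479 CPM in KO1 and KO3, against 1466 and 1549 CPM in WT1 and WT2, which overlap. For mt-Nd4 the levels were 1106 and 942 CPM in KO1 and KO3, against 935 and 864 CPM in WT1 and WT2. The groups of mt-Nd4 do not overlap, but KO3 and WT1 are nearly level. A lower pair of values was seen for mt-Nd2, with 330 and 357 CPM in KO1 and KO3, against 293 and 252 CPM in WT1 and WT2. Counts of mt-Nd4l came to 81.2 and 66.1 CPM in KO1 and KO3, against 68.7 and 58.4 CPM in WT1 and WT2. The only messenger read from the other strand, mt-Nd6 (chrM:13552-14070), had 39.7 and 38.7 CPM in KO1 and KO3, against 31.6 and 34.4 CPM in WT1 and WT2. Whether the counting used strand is not given, so reads of mt-Nd6 and of RNA from the opposite strand cannot be told apart. Lowest in counts as deposited was mt-Nd3, at 28.2 and 15.6 CPM in KO1 and KO3, against 15.4 and 16.1 CPM in WT1 and WT2. As deposited it was detected in 114 of 284 cells, while the other 12 messengers were detected in at least 280. With its nuclear copy Gm28438 added, mt-Nd3 had 59.3 and 50.2 CPM in KO1 and KO3, against 41.0 and 46.6 CPM in WT1 and WT2. These values lay above those of mt-Nd6 in every mouse.

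Complex III has a single mitochondrially encoded subunit, cytochrome b. Its messenger mt-Cytb had 3253 CPM in KO1 and 2560 CPM in KO3, against 1779 CPM in WT1 and 2196 CPM in WT2. Both Sirt6-/- mice again lay above both wild-type mice.

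Complex IV, cytochrome c oxidase, takes its 3 core subunits from this genome. The catalytic subunit messenger mt-Co1 had 4115 and 3199 CPM in KO1 and KO3, against 3398 and 4557 CPM in WT1 and WT2, with the extremes in KO3 and WT2. That of mt-Co2, which carries the copper site that accepts electrons from cytochrome c, was 1703 and 1248 CPM in KO1 and KO3, against 1078 and 1094 CPM in WT1 and WT2. The level of mt-Co3 was 806 and 540 CPM in KO1 and KO3, against 375 and 696 CPM in WT1 and WT2. Here mt-Co2 separated the groups and mt-Co1 and mt-Co3 did not.

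The ATP synthase subunits mt-Atp8 and mt-Atp6 overlap on 1 messenger and form part of the membrane proton path. For mt-Atp8 the table gave 179 and 138 CPM in KO1 and KO3, against 119 and 140 CPM in WT1 and WT2. For mt-Atp6 it gave 859 and 658 CPM in KO1 and KO3, against 632 and 797 CPM in WT1 and WT2. Neither separated the groups in counts as deposited. With its nuclear copy Gm10925 added, mt-Atp6 had 6953 and 5686 CPM in KO1 and KO3, against 4713 and 5539 CPM in WT1 and WT2. These values do not overlap, but KO3 and WT2 are nearly level.

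Per kilobase, averaged over the 4 mice, the order of levels was mt-Rnr2 (21111 CPM per kilobase), mt-Nd1 (4397), mt-Co1 (2471), mt-Cytb (2139), mt-Co2 (1872), mt-Atp6 (1082), mt-Nd5 (886), mt-Co3 (770), mt-Atp8 (707), mt-Nd4 (698), mt-Nd2 (297), mt-Nd4l (231), mt-Rnr1 (206), mt-Nd6 (69.5) and mt-Nd3 (54.1). Ranks 1 and 2 were the same in every mouse. In counts as deposited mt-Cytb stood above mt-Co1 in both Sirt6-/- mice and below it in both wild-type mice. With its nuclear copy Gm29216 added, mt-Co1 stood above mt-Cytb in all 4 mice. Other neighbours overlapped between mice: mt-Cytb ranked above mt-Co2 in KO1, KO3 and WT2 and below it in WT1, and mt-Nd5, mt-Co3, mt-Atp8 and mt-Nd4 changed places among ranks 7 to 10.

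This order depends on how counts were divided with chromosome 1. The 7 copies together held 0.72% of all counts. For every 100 mitochondrial messenger counts the copies had 42.1 in KO1 and 43.7 in KO3, against 44.8 in WT1 and 45.8 in WT2. Of the counts shared by mt-Atp6 and Gm10925, only 13% stood on mt-Atp6, with a range over cells of 5.57% to 24.6%. With its copy added, mt-Atp6 moved from rank 6 to rank 2, at 8404 CPM per kilobase, and mt-Nd1 and mt-Co1 moved to ranks 3 and 4. At the low end mt-Nd3 moved from rank 15 to rank 14 with copies added, above mt-Nd6.

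The division differed by pair and took distinct forms among cells. For mt-Nd4l and Gm10222, 267 of 283 cells with at least 10 counts on the pair stood at an even split, within 0.5 percentage points of 50%. For mt-Nd3 and Gm28438, 154 of 268 such cells had no more than 0.5% on mt-Nd3 and 51 had at least 99.5% on it. The share on mt-Co3 spread over the whole range, with medians over cells of 69.7% in KO1 and 44.8% in KO3, against 39.3% in WT1 and 61.3% in WT2. Over all cells the mitochondrial gene received 57.0% of its pair for mt-Co3, 73.4% for mt-Co2, 77.0% for mt-Co1 and 99.3% for mt-Nd4.

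**Figure D2:**
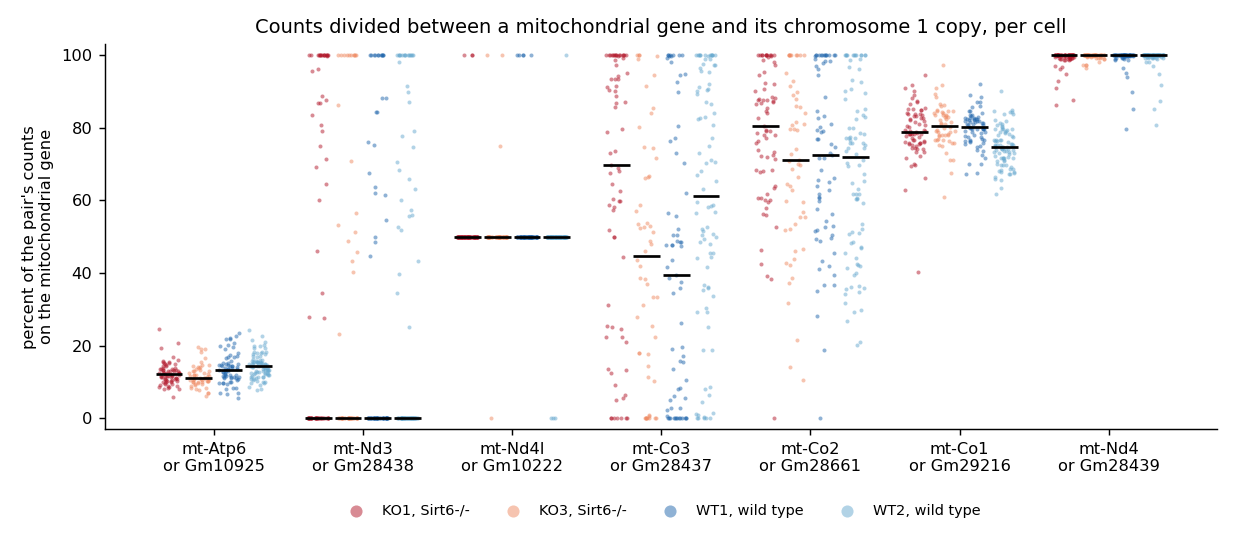
Percent of the counts of a pair that stood on the mitochondrial gene rather than on its chromosome 1 copy (vertical axis), for 7 pairs (horizontal axis); each point is 1 cell with at least 10 counts on the pair, coloured by mouse, and black lines are medians. mt-Nd4l stands at 50% in nearly every cell, mt-Nd3 mostly at 0% or 100%, and mt-Atp6 between 5.57% and 24.6%.

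Summing each pair changed how its members followed the rest of the messengers. Pearson correlations across the cells of a mouse are given as descriptions of log2(CPM + 1) values, with non-mitochondrial counts as the denominator. The values of a cell share its library and that denominator. For mt-Co3 and its copy the correlation with each other was negative in all 4 mice, with a mean of -0.43. The correlation of mt-Co3 with the summed other messengers was 0.33 in KO1 and 0.06 in KO3, against 0.29 in WT1 and 0.26 in WT2. With the copy added it was 0.66 in KO1 and 0.64 in KO3, against 0.76 in WT1 and 0.71 in WT2. For mt-Co2 the mean over mice was 0.39 alone and 0.76 with its copy, and for mt-Nd3 it was 0.24 and 0.39. The copy Gm10925 followed the other messengers more closely (mean 0.85) than mt-Atp6 did (mean 0.70).

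**Figure D3:**
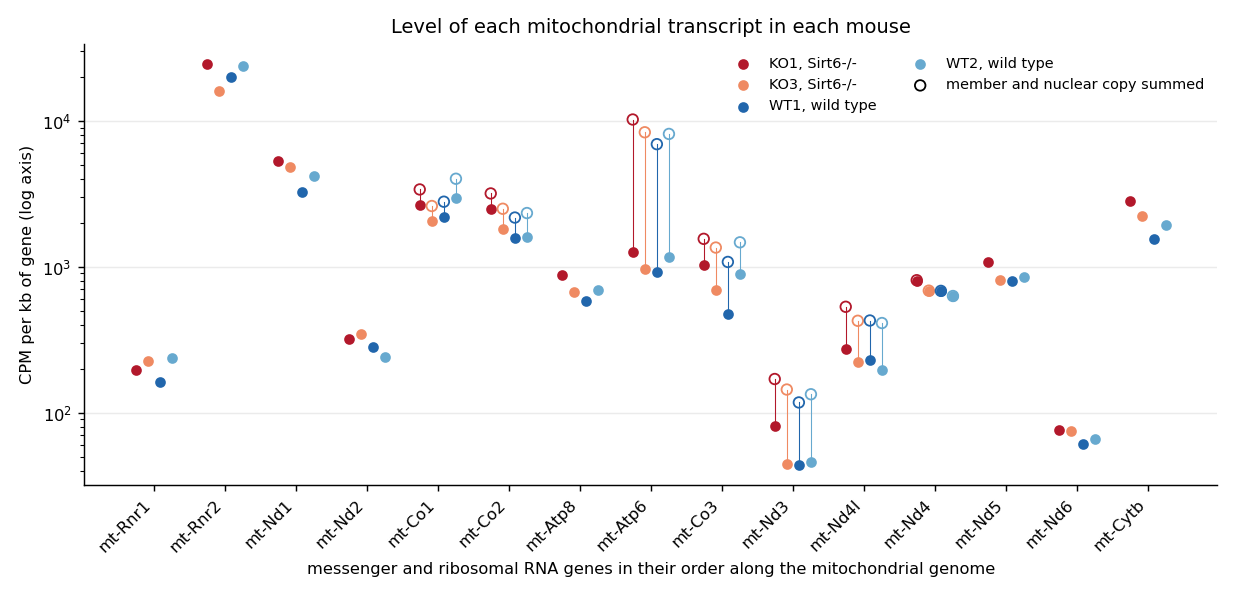
Level in CPM per kilobase (log axis) of the 13 messengers and 2 ribosomal RNAs in their order along the mitochondrial genome, with 1 filled point per mouse, Sirt6-/- mice left of wild-type mice. Open circles add the chromosome 1 copy, which lifts the mean of mt-Atp6 to 8404 from 1082 CPM per kilobase.

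The 22 transfer RNAs together had 651 counts, of which mt-Ts1 had 533, or 81.9%. Next were mt-Tq with 22 counts, mt-Ta with 16 and mt-Te with 12, and mt-Tc and mt-Tg had 10 each. Both mt-Tv and mt-Ts2 were at 0 in all cells, which allows at most 3 counts over the whole table for counting error alone. The transfer RNA for serine, mt-Ts1, lies on the minus strand at chrM:6870-6938 and overlaps the end of mt-Co1 on the other strand. It is printed whole because of that overlap, which is the 3 bases in capitals.
mt-Ts1, chrM:6870-6938, minus strand: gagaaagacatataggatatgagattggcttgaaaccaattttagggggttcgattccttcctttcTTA
Whether the counting used strand is not given in the sources used here, so reads of mt-Ts1 and of RNA from the mt-Co1 strand cannot be told apart. Counts of mt-Ts1 were seen in 53 of 73 cells of KO1 and 35 of 54 of KO3, against 47 of 69 of WT1 and 66 of 88 of WT2. Cells with such counts had a higher median of mt-Co1 in each mouse: 4216 against 3194 CPM in KO1, 3464 against 2511 CPM in KO3, 3403 against 2850 CPM in WT1, and 4702 against 3690 CPM in WT2.

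Of the 13 shares of messenger counts, 2 were higher in both Sirt6-/- mice than in both wild-type mice and 2 were lower. That is near the 17% and 18.7% of all genes whose levels separate in these directions, so the count is not particular to the messengers. Of all messenger counts mt-Nd1 held 25.9% in KO1 and 29.2% in KO3, against 23.5% in WT1 and 24.5% in WT2. The share of mt-Cytb was 16.7% in KO1 and 16.1% in KO3, against 13.3% in WT1 and 13.5% in WT2. In the other direction mt-Co1 held 21.1% in KO1 and 20.1% in KO3, against 25.5% in WT1 and 28.1% in WT2. The share of mt-Atp6 was 4.40% in KO1 and 4.14% in KO3, against 4.74% in WT1 and 4.91% in WT2. With copies added, mt-Nd1, mt-Cytb and mt-Co1 stayed separated in the same direction, while mt-Atp6 turned over, to 25.1% in KO1 and 24.9% in KO3, against 24.4% in WT1 and 23.4% in WT2.

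Summed by complex, the 3 complex IV messengers took 33.9% of messenger counts in KO1 and 31.4% in KO3, against 36.4% in WT1 and 39.1% in WT2, which do not overlap. With copies added it was 31.1% in KO1 and 29.8% in KO3, against 34.4% in WT1 and 37.8% in WT2. Among these 3, only the share of mt-Co1 separated the groups, with or without copies. The share of mt-Co2 was 8.71% in KO1 and 7.86% in KO3, against 8.09% in WT1 and 6.74% in WT2. That of mt-Co3 was 4.12% in KO1 and 3.40% in KO3, against 2.81% in WT1 and 4.29% in WT2. The 7 complex I messengers took 44.1% in KO1 and 47.5% in KO3, against 44.6% in WT1 and 41.6% in WT2, which overlap. With copies added they took 31.5% in KO1 and 33.5% in KO3, against 31.3% in WT1 and 28.95% in WT2, which do not, though KO1 and WT1 are nearly level. The ATP synthase pair turned over as mt-Atp6 did. It took 5.32% in KO1 and 5.01% in KO3, against 5.64% in WT1 and 5.77% in WT2, and with copies added 25.70% in KO1 and 25.51% in KO3, against 25.04% in WT1 and 23.99% in WT2. These shares sum to a whole, so the members are not independent of each other.

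In the test over all genes no mitochondrial transcript was called between the genotypes. Counts were summed per mouse and tested with edgeR's quasi-likelihood test with Benjamini-Hochberg adjustment, and 16 members passed the filter on low counts: the 13 messengers, both ribosomal RNAs and mt-Ts1. At an adjusted p under 0.05, 0 of the 16 were called, against a background of 0 of 16567 genes (0%). At an unadjusted p under 0.05, 0 of 16 members and 848 genes (5.12%) passed. DESeq2 called 148 genes (0.893%), with 1190 (7.18%) at an unadjusted p under 0.05, and limma-voom 0 genes (0%), with 818 (4.94%). No member passed in either tool, at an adjusted or an unadjusted p under 0.05. In counts as deposited, the largest differences were in mt-Cytb, with a log2 difference of 0.51 ± 0.24 (SE, edgeR adjusted p = 0.965), and mt-Nd3, with 0.44 ± 0.39 (edgeR adjusted p = 0.977). Next were mt-Nd1 with 0.41 ± 0.22 and mt-Co2 with 0.40 ± 0.22 (both edgeR adjusted p = 0.965). The lowest were mt-Ts1 with -0.25 ± 0.83 and mt-Co1 with -0.17 ± 0.26 (both adjusted p = 0.999). Leaving out WT1 moved the difference of mt-Nd1 to 0.21 and that of mt-Cytb to 0.33, and leaving out KO1 moved that of mt-Co2 to 0.19. Without WT2 that of mt-Nd1 was 0.64, and without KO3 that of mt-Nd3 was 0.79.

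The log2 difference was above 0 in 12 of 13 messengers, against 49.3% of all genes, and their median was 0.24, against -0.01 over all genes. Without KO1, 8 of 13 were above 0 and the median was 0.06, against -0.12 over all genes. Without WT1 the median was 0.17. Both Sirt6-/- mice lay above both wild-type mice in 6 of 13 (mt-Nd1, mt-Nd2, mt-Co2, mt-Nd4, mt-Nd6 and mt-Cytb), against 17% of all genes, and below both in 0, against 18.7%. The messengers share precursors, so they do not count as separate observations. Leaving out KO1 turned the difference of mt-Atp6 (-0.13), mt-Co3 (-0.01), mt-Nd3 (-0.02) and mt-Nd5 (-0.04) below 0, and leaving out WT1 turned those of mt-Atp6 (-0.15) and mt-Co3 (-0.13). Leaving out WT2 turned mt-Co1 above 0 (0.12). With copies added the difference of mt-Atp6 was 0.26, against 0.04 without, and that of mt-Co3 was 0.15, against 0.28 without. Adding copies also lowered the difference of mt-Nd3 to 0.28, from 0.44, and that of mt-Co2 to 0.29, from 0.40.

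**Figure D4:**
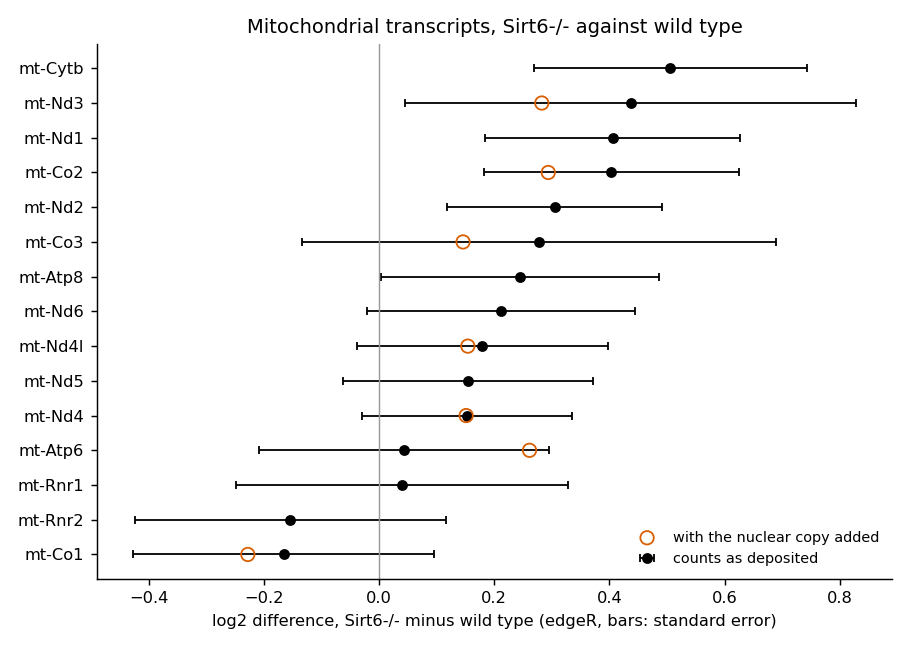
Log2 difference, Sirt6-/- minus wild type, of the 13 messengers and 2 ribosomal RNAs (horizontal axis; points are edgeR estimates from summed counts as deposited, bars their standard errors, n = 2 mice each). Open circles add the chromosome 1 copy; mt-Cytb is highest at 0.51 and mt-Co1 lowest at -0.17, and no member passed the adjusted test.

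The nuclear genes of the same complexes were set beside them. Of 81 listed nuclear respiratory genes 80 were tested, and 0 were called at an edgeR adjusted p under 0.05. Their median log2 difference was 0.31, and 73 of the 80 differences were above 0, against 49.3% of all genes. Both Sirt6-/- mice lay above both wild-type mice in 50, against 17% of all genes, and below them in 1, against 18.7%. All these genes were measured in the same mice, on plates that the genotypes do not share, so they do not count as separate observations. At an unadjusted p under 0.05, 8 of the 80 passed, against 5.12% of all genes. Leaving out 1 mouse moved their median to between 0.18 and 0.48.

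The medians by complex were 0.34 for 38 nuclear complex I genes, 0.06 for 4 complex II genes, 0.30 for 9 complex III genes, 0.33 for 11 complex IV genes and 0.25 for 18 ATP synthase genes. In TMM-scaled CPM, the complex III subunit Uqcr10 had 64.2 and 95.3 CPM in KO1 and KO3, against 39.9 and 48.0 CPM in WT1 and WT2 (log2 difference 0.86 ± 0.29, edgeR adjusted p = 0.917). The complex I subunit Ndufa11 had 41.2 and 49.9 CPM in KO1 and KO3, against 29.0 and 28.5 CPM in WT1 and WT2 (0.66 ± 0.24, edgeR adjusted p = 0.962). The ATP synthase subunit gene Atp5l (0.59), the complex IV subunit gene Cox7c (0.48) and the complex II gene Sdhd (0.30) had the largest positive differences of their groups. The largest negative ones were those of Ndufv3 (-0.48), Sdhc (-0.30), Cox7a2l (-0.17), Uqcrc2 (-0.15) and Atp5g2 (-0.13). None of these passed the adjusted test.

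Other lists around the mitochondrial genome did not pass either, with 0 genes called in each. The median difference was -0.03 over 17 genes of its transcription and replication, 0.20 over 25 genes of RNA processing, stability and decay, 0.21 over 9 translation factors, -0.29 over 7 biogenesis regulators and 0.34 over 12 genes of the mitochondrial unfolded protein and integrated stress responses. It was -0.0045 over 20 glycolysis genes, 0.33 over 18 G2/M genes, 0.27 over 16 S phase genes and -0.75 over 16 immediate early and dissociation stress genes. The largest positive and negative differences of these lists were Ssbp1 (0.45) and Mterf2 (-0.62) for transcription and replication, Mrm2 (1.22) and 1110008L16Rik (-1.17) for RNA processing, Tsfm (0.83) and Mrrf (-0.67) for translation, and Gabpb1 (0.33) and Myc (-0.55) for biogenesis. They were Chac1 and Yme1l1 (-0.20) for the stress responses, Slc16a3 (1.15) and Aldoc (-1.47) for glycolysis, Mki67 (0.73) and Cenpf (-0.92) for G2/M, Tyms (0.67) and Uhrf1 (-0.19) for S phase, and Hsp90aa1 (0.55) and Nr4a1 (-1.27) for the immediate early list. Nr4a1 had 626 and 506 CPM in KO1 and KO3, against 507 and 2228 CPM in WT1 and WT2, so its value rests on WT2. Slc16a3 also rests on WT2, with 130 and 178 CPM in KO1 and KO3, against 118 and 21.1 CPM in WT1 and WT2. Chac1 had 0.90 and 3.46 CPM in KO1 and KO3, against 1.00 and 0 CPM in WT1 and WT2, so it rests on KO3 and WT2 and no fold is given.

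Within each mouse, the mitochondrial messenger level had a negative correlation with the number of detected genes. The level is the log2 of messenger counts per non-mitochondrial count. Its correlation with detected genes was -0.15 in KO1 and -0.25 in KO3, against -0.21 in WT1 and -0.33 in WT2. With the 88 cells of WT2 ordered by detected genes, from fewest to most, and divided into 4 bins of 22 cells, the median messenger share was 1.83%, 1.98%, 1.53% and 1.37%. The same bins gave 2.12%, 1.97%, 1.69% and 1.90% in KO1, 2.06%, 1.54%, 1.49% and 1.18% in KO3, and 1.49%, 1.12%, 1.10% and 1.25% in WT1. They hold 13 to 19 cells each, and the share was higher again in the last bin of KO1 and WT1. The ribosomal level followed this in the wild-type mice only. Its correlation with detected genes was 0.17 in KO1 and 0.31 in KO3, against -0.17 in WT1 and -0.34 in WT2.

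Messengers varied together in every mouse. Over the 78 pairs the mean correlation was 0.30 in KO1 and 0.36 in KO3, against 0.33 in WT1 and 0.26 in WT2, and 56 pairs were positive in all 4 mice and 0 negative in all 4. The closest pairs were mt-Nd1 with mt-Cytb (mean r = 0.66), mt-Nd4 with mt-Nd4l (0.62), which share a messenger, mt-Nd4 with mt-Nd5 (0.60) and mt-Atp8 with mt-Atp6 (0.59). Messenger and ribosomal levels were correlated at 0.70 in KO1 and 0.27 in KO3, against 0.62 in WT1 and 0.68 in WT2, so KO3 stood apart from the other mice. The SD of the log2 ratio over cells was 0.41 in KO1 and 0.83 in KO3, against 0.39 in WT1 and 0.34 in WT2.

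The relation to nuclear respiratory genes was weak and not the same in all mice. The mean of their standardised log2(CPM + 1) values had a correlation with the messenger level of 0.20 in KO1 and 0.25 in KO3, against 0.22 in WT1 and -0.09 in WT2. With linear trends on depth and detected genes removed, it was 0.23 in KO1 and 0.24 in KO3, against 0.51 in WT1 and 0.15 in WT2. Of 80 nuclear respiratory genes measured in at least 20% of cells of every mouse, 17 were positive in all 4 mice and 3 negative. Among all 8458 genes so measured, 7.93% were positive and 22.6% negative. The median of the mean correlation was 0.06 over the respiratory genes and -0.04 over all genes.

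Nuclear complex IV genes had the highest correlations of the respiratory groups. They stood at 0.31 in KO1 and 0.37 in KO3, against 0.36 in WT1 and 0.10 in WT2. Of these genes 6 of 11 were positive in all 4 mice, against 7.93% of all genes. Cox4i1 (mean r = 0.33) and Cox8a (0.29), subunits of the complex, were highest and Cox5a (0.02) lowest. For complex I the ends were Ndufa13 (mean 0.25), Ndufa3 (mean 0.21) and Ndufs1 (mean -0.21). Complex II ran from Sdhc (0.06) and Sdhb (0.02) to Sdha (-0.03), complex III from Uqcr11 (0.15) and Uqcrq (0.13) to Cyc1 (-0.16), and the ATP synthase from its inhibitor Atpif1 (0.20) and Atp5l (0.17) to Atp5c1 (-0.09).

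The 20 measured genes of RNA processing, stability and decay had correlations of the list with the messenger level of -0.23 in KO1 and -0.34 in KO3, against -0.05 in WT1 and -0.29 in WT2, with 0 genes positive and 5 negative in all 4 mice. The 5 of 20 are near the 22.6% of all genes that were negative, and the median gene stood at -0.07, or -0.02 with trends on depth and detected genes removed. Among them Lrpprc, which binds and stabilises mitochondrial messengers, had a mean of -0.20, and Elac2, which cuts the 3′ ends of transfer RNAs, -0.23. The glycolysis list stood at -0.31 in KO1 and -0.14 in KO3, against -0.06 in WT1 and -0.33 in WT2, with 7 of 18 genes negative in all 4 mice. Its ends were Ldhb (mean 0.21) and Ldha (-0.30), the heart-type and muscle-type subunits of lactate dehydrogenase. With trends on depth and detected genes removed, the median gene of the glycolysis list stood at -0.01, against -0.10 before. The immediate early and dissociation stress list was at 0.20 in KO1 and 0.28 in KO3, against 0.04 in WT1 and 0.18 in WT2. Of its genes, 6 of 16 were positive in all 4 mice, against 7.93% of all genes. Its median gene stood at 0.12, or 0.11 with trends on depth and detected genes removed. Its highest gene was Egr1 (mean 0.24).

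**Figure D5:**
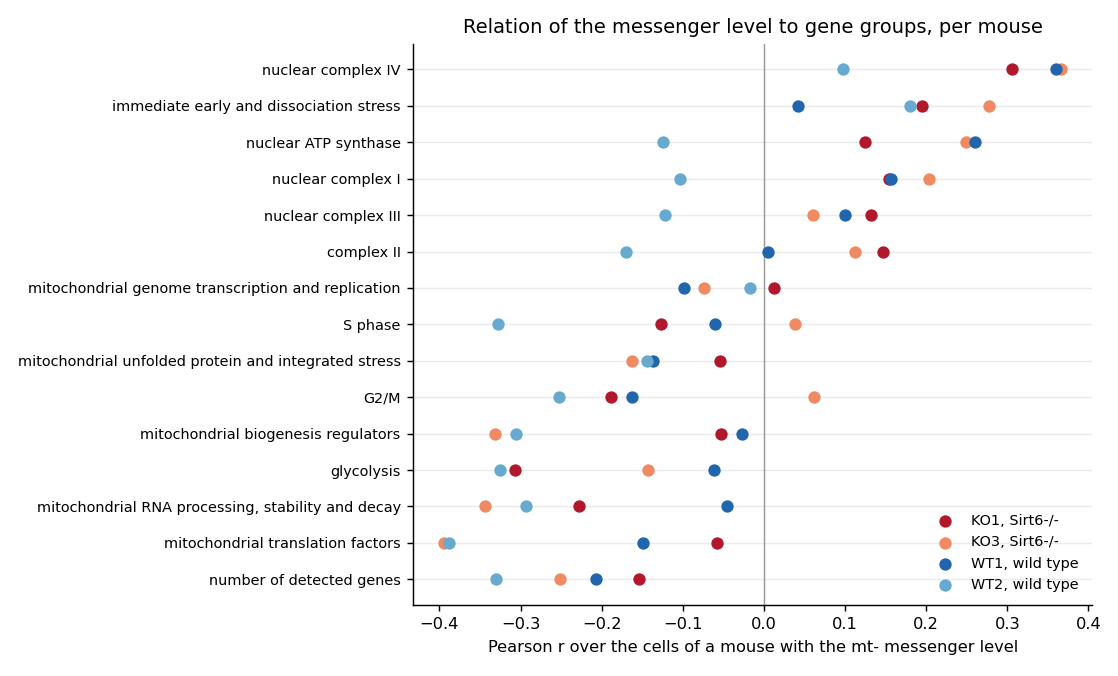
Pearson correlation, over the cells of a mouse, of the mitochondrial messenger level with the number of detected genes and with the mean standardised level of 14 gene lists (horizontal axis), with 1 point per mouse. Nuclear complex IV is positive in all 4 mice, from 0.10 to 0.37, and detected genes are negative in all 4, from -0.33 to -0.15.

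Outside these lists the genes most like the messenger level were 2 of its nuclear copies, Gm10925 (mean r = 0.86) and Gm29216 (0.54). After them came Gas5 (0.48), a host of small nucleolar RNAs, and the cytosolic ribosomal protein gene Rpl23 (0.43). Rpl23 had 0.41 in KO1 and 0.38 in KO3, against 0.49 in WT1 and 0.47 in WT2. The lowest were Anxa1 (-0.37), Krt6b (-0.35), Jup (-0.35), Idi1 (-0.34) and Gm3571 (-0.34). Anxa1 encodes a membrane-binding annexin, Krt6b a keratin of activated epidermis, Jup the junction protein plakoglobin and Idi1 an enzyme of cholesterol synthesis. Anxa1 had -0.32 in KO1 and -0.38 in KO3, against -0.39 in WT1 and -0.39 in WT2.

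Cytosolic ribosomal protein genes were then counted as a group, chosen after these values were seen. Of 85 measured genes named Rpl or Rps, with Fau, 76 were positive in all 4 mice, against 7.93% of all genes. In this group 1 gene, Rpl7l1, was negative in all 4 mice, and the median correlation of the 85 was 0.30. The 78 mitochondrial ribosomal protein genes, chosen in the same way, had a median of -0.05, with 1 positive and 14 negative in all 4 mice. That is near the median of -0.04 and the 22.6% negative over all genes.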

How the data were processed

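STAR, RSEM and mm10 (GRCm38) are named in the submitters' processing notes, with no version. The values deposited by the authors are expected counts for each gene in each cell. cDNA was amplified for 21 cycles without molecular identifiers, per the labels' protocols, so floors cover counting error only. Of 54247 rows 54156 were matched to a symbol, and the 91 others held 0.000107% of counts. Counts were summed per mouse, rounded and tested with edgeR 4.0.16 (filterByExpr, TMM), and DESeq2 1.42.0 and limma 3.58.1 served as alternatives. Shares were compared by exact two-sided permutation over mice. Correlations (numpy 2.4.6) are Pearson's within each mouse. Nuclear copies were sought with blastn 2.17.0+ in GENCODE M21 transcripts (at least 100 bases, 98% identity). The edgeR fit and the correlations were run on simulated data as a check of the code. Recovery of simulated differences was required only at a biological coefficient of variation below the 0.72 of these mice. The members and gene lists were chosen with earlier results of these data known. The text names every messenger and ribosomal RNA, the 5 highest transfer RNAs (6 with a tie), the 2 highest and 1 lowest correlated subunits per complex, the 5 highest and 5 lowest correlated other genes (of which 1 is not reported here), and the extreme differences of each list. Ldha, Ldhb, Lrpprc, Elac2, Egr1 and Rpl7l1 were named after their values were seen. Nothing in the labels says whether cells of a mouse came from 1 tumour. No value column was left out.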

Additional observations from a re-analysis of the deposited data

How the results depend on the processing

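The difference in the share of counts on mt- genes, 0.037 percentage points, changed direction with the median over cells (-0.024) and with the main plate of each mouse (-0.015), and ran from -0.81 to 0.88 with 1 mouse left out. It was positive with copies added (0.12) and without ribosomal RNA (0.30). Differences in messenger share and in the log2 ribosomal to messenger ratio kept their direction under every alternative run. The mean pairwise correlation among messengers, 0.31, was 0.37 by Spearman and 0.43 with copies added, an alternative chosen after seeing the data. No member or nuclear respiratory gene was called under any of the 12 alternatives to edgeR with its standard filter, and the lowest adjusted p of the 13 messengers and 2 ribosomal RNAs was 0.712. Of 120 of their log2 differences under settings other than leaving out a mouse, 0 changed sign, and of 60 with a mouse left out, 11 did. With 1 mouse left out, where the lone mouse is assumed to vary like the other genotype, the log2 difference ran from -0.39 to 0.12 for mt-Co1, -0.15 to 0.27 for mt-Atp6, -0.13 to 0.85 for mt-Co3, -0.018 to 0.79 for mt-Nd3, -0.036 to 0.33 for mt-Nd5, -0.23 to 0.39 for mt-Rnr1 and -0.46 to 0.10 for mt-Rnr2. The cause was not tested. Leaving out KO1 moved the median of all genes by over 0.1, to -0.12, against -0.01 with all mice.

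No paired analysis was possible because the groups share fewer than 2 mouse numbers. The common biological coefficient of variation between mice of a genotype was 0.72, which with 2 mice per genotype limits what the test can call.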
